A study of Homo sapiens with 6 samples.

Results

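The APOBEC3 genes are the 7 genes APOBEC3A, APOBEC3B, APOBEC3C, APOBEC3D, APOBEC3F, APOBEC3G and APOBEC3H, which lie side by side on chromosome 22 and encode cytidine deaminases. They were taken by gene symbol from the expression values of T24 cells, which list 58174 genes, and all 7 symbols were found. Of these, 5 passed the filter on low values (at least 0.5 RPKM in at least 3 of the 6 samples) and were tested together with 12428 genes in all. APOBEC3A and APOBEC3H did not pass and are described by their values. RPKM is a read count scaled to the length of the gene and to the number of mapped reads in the sample.

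APOBEC3 enzymes remove the amino group of cytosine in single-stranded DNA, which leaves uracil. The family restricts retroviruses and transposable elements, and several of its genes are induced by interferon. In bladder cancer the family is known for mutations at cytosines that follow a thymine, and APOBEC3A and APOBEC3B are the members most often named as their source. APOBEC3G and APOBEC3F are known as targets of the HIV Vif protein, and APOBEC3B is the member found mainly in the nucleus.

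The study knocked down UBC9, the enzyme that conjugates SUMO to its targets, to find the genes that depend on it in bladder cancer. T24 is an established line from a human bladder carcinoma. Both groups were T24 cells infected with lentivirus and selected with puromycin: 3 shRNA-NC samples carried a scrambled control shRNA and 3 shRNA-UBC9 samples carried an shRNA against UBC9. The sources describe 1 shRNA against UBC9, so the knockdown and any other effect of that shRNA or of the selected line cannot be told apart. The labels do not say that the replicates were separate cultures, so the p-values measure the spread between these samples, which may be technical.

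The steps between low RPKM values gave a depth of 28200000 to 36100000 mapped reads per sample. Of 8 epithelial and urothelial markers 7 reached 0.5 RPKM in some sample, and they summed to 1020 to 1190 RPKM in shRNA-NC and 556 to 663 RPKM in shRNA-UBC9. KRT7 was the highest, at 510 to 627 and 216 to 286 RPKM. KRT8, KRT18, KRT19 and GATA3 were also lower in every shRNA-UBC9 sample than in any control. CD44 went the other way, at 70.1 to 72.5 RPKM in shRNA-NC and 88.4 to 126 RPKM in shRNA-UBC9. EPCAM was at 0.412 to 0.986 and 0.732 to 2.51 RPKM, with overlap, and the urothelial differentiation gene UPK2 did not exceed 0.125 RPKM. The mesenchymal genes VIM and FN1 were also high, at 286 to 838 RPKM. Of 11 leukocyte markers, MS4A1 was at 0 in every sample, and CD14 and LYZ alone reached 0.5 RPKM in any sample.

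The members share a zinc-binding deaminase fold, and their genes arose by duplication. The reference proteins of APOBEC3A, APOBEC3C and APOBEC3H hold 1 zinc motif (His, any residue, Glu, with 2 cysteines after it), and those of APOBEC3B, APOBEC3D, APOBEC3F and APOBEC3G hold 2. To compare the expressed members at this motif only, 30 coding bases at the last such motif are given for the 5 tested genes. They were read from the plus strand of GRCh38 at chr22:38991356-38991385 for APOBEC3B, chr22:39017778-39017807 for APOBEC3C, chr22:39031706-39031735 for APOBEC3D, chr22:39052086-39052115 for APOBEC3F and chr22:39086303-39086332 for APOBEC3G. Capitals mark bases that differ from the commonest base of the 5 sequences at that position.
APOBEC3B: TAcGGCCgCcatgcGgaGCTgCgcttcTtG
APOBEC3C: acccattgtcatgcagaaaggtgcttcctc
APOBEC3D: acccattgtcatgcagaaaggtgcttcctc
APOBEC3F: acccattgtcatgcagaaaggtgcttcctc
APOBEC3G: GAAGGCCgCcatgcagaGCTgtgcttcctG
APOBEC3C, APOBEC3D and APOBEC3F were identical over these 30 bases. APOBEC3G differed from them at 12 positions and APOBEC3B at 14, whereas APOBEC3B and APOBEC3G differed from each other at 5.

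Identity over longer stretches bears on the counts, because a read inside a shared stretch cannot be given to 1 member. Of all stretches of 100 bases in the canonical transcript, 20.5% in APOBEC3B also occurred in another member, 11.7% in APOBEC3A, 6.71% in APOBEC3D and 2.15% in APOBEC3F. The share was 13.9% in APOBEC3A, 9.23% in APOBEC3D, 7.30% in APOBEC3G and 5.96% in APOBEC3F. No such stretch of APOBEC3C or APOBEC3H occurred in another member, and none of APOBEC3B occurred in APOBEC3G. For APOBEC3C, and for APOBEC3B with APOBEC3G, the likeness at the motif above therefore did not carry over to stretches of 100 bases. APOBEC3D and APOBEC3F, identical at the motif, did share such stretches, 5.09% of those in APOBEC3D and 2.8% of those in APOBEC3F. How the authors' software placed reads with several matches is not stated, so the levels of APOBEC3A, APOBEC3B, APOBEC3D, APOBEC3F and APOBEC3G are uncertain to that extent.

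APOBEC3C and APOBEC3B were by far the highest members in every sample. APOBEC3C, a single-domain enzyme, was at 32.2, 34.8 and 38.0 RPKM in shRNA-NC 1, 2 and 3, and at 26.5, 29.6 and 29.5 RPKM in shRNA-UBC9 1, 2 and 3. All shRNA-UBC9 samples were below all shRNA-NC samples. The mean fell by 18.4%, from 35.0 ± 2.90 to 28.5 ± 1.80 RPKM (SD, n = 3). The log2 fold change was -0.29 (SE 0.094, 95% interval -0.51 to -0.07; limma, adjusted p = 0.0417), so the fall was small and close to the threshold of 0.05. It missed the threshold without any 1 of the samples other than shRNA-NC 1, with adjusted p from 0.0652 to 0.158, and also with no filter on low values (0.0609), with no intensity trend (0.0623) and with a replicate block (0.0651).

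APOBEC3B, the nuclear member with 2 domains, was at 21.7, 21.9 and 21.9 RPKM in shRNA-NC 1, 2 and 3, and at 15.6, 24.3 and 23.4 RPKM in shRNA-UBC9 1, 2 and 3. The groups overlapped: shRNA-UBC9 1 was below all the others, and the remaining shRNA-UBC9 samples were above the controls. The means were 21.8 ± 0.147 and 21.1 ± 4.78 RPKM (SD, n = 3), with a log2 fold change of -0.08 (SE 0.159, 95% interval -0.44 to 0.29; limma, adjusted p = 0.739). Without shRNA-UBC9 1 the log2 fold change was 0.13, in the opposite direction (adjusted p = 0.257). These samples thus gave no change of APOBEC3B beyond its spread, and the interval does not cover a change by 1 on the log2 scale in either direction. APOBEC3B-AS1, a gene on the opposite strand that overlaps the end of APOBEC3B by 1246 bases, had 4 reads in shRNA-NC 1, 1 read in shRNA-UBC9 1 and none in the others.

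APOBEC3D, APOBEC3F and APOBEC3G, all with 2 domains, were expressed at lower levels. APOBEC3D was at 1.74, 2.63 and 2.06 RPKM in shRNA-NC 1, 2 and 3, and at 2.98, 3.82 and 3.18 RPKM in shRNA-UBC9 1, 2 and 3. The lowest shRNA-UBC9 sample was above the highest control. The mean rose from 2.14 ± 0.451 to 3.33 ± 0.435 RPKM (SD, n = 3), an increase of 55.5%. The log2 fold change was 0.63 (SE 0.164, 95% interval 0.25 to 1.0; limma, adjusted p = 0.0190). The adjusted p was 0.0598 without shRNA-NC 1, 0.0629 without shRNA-NC 3, 0.0680 without shRNA-UBC9 2 and 0.0531 with no filter on low values.

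APOBEC3G, the member first known for its action against HIV, was at 1.35, 2.30 and 1.92 RPKM in shRNA-NC 1, 2 and 3, and at 2.87, 3.91 and 2.61 RPKM in shRNA-UBC9 1, 2 and 3. Here too the groups did not overlap, and the distance between the nearest samples, 2.30 and 2.61 RPKM, was small against the spread within each group. The mean rose from 1.86 ± 0.481 to 3.13 ± 0.690 RPKM (SD, n = 3), an increase of 68.6%. Its log2 fold change of 0.73 was the highest of the 5 tested members (SE 0.213, 95% interval 0.24 to 1.22; limma, adjusted p = 0.0282). The adjusted p was 0.0792 without shRNA-NC 1, 0.0651 without shRNA-NC 3, 0.0899 without shRNA-UBC9 2 and 0.0760 with no filter on low values.

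APOBEC3F, the neighbour of APOBEC3D in the cluster and another target of Vif, was at 2.02, 2.80 and 2.12 RPKM in shRNA-NC 1, 2 and 3, and at 2.33, 2.95 and 2.69 RPKM in shRNA-UBC9 1, 2 and 3. The groups overlapped, since shRNA-NC 2 was higher than 2 of the 3 shRNA-UBC9 samples. The means were 2.31 ± 0.423 and 2.66 ± 0.313 RPKM (SD, n = 3), with a log2 fold change of 0.20 (SE 0.151, 95% interval -0.15 to 0.55; limma, adjusted p = 0.332). A difference of the size seen for APOBEC3D lay just above this interval.

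APOBEC3A and APOBEC3H, both with 1 domain, were at or near 0. APOBEC3A had 0, 0 and 1 reads in shRNA-NC 1, 2 and 3 and 1, 4 and 0 reads in shRNA-UBC9 1, 2 and 3, where 3 reads correspond to 0.0353 to 0.0451 RPKM. APOBEC3H had 2, 0 and 0 reads in the controls and 1, 4 and 0 reads in shRNA-UBC9, with 3 reads corresponding to 0.0665 to 0.0850 RPKM. For both genes the highest sample was shRNA-UBC9 2, with 4 reads, and a difference between groups was not detectable at this depth. The related genes outside the cluster were also at or near 0, with APOBEC1 and APOBEC4 at 0 in all samples and APOBEC2 above 0 in shRNA-UBC9 3 alone (0.123 RPKM).

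Counting error was smaller than the differences of APOBEC3C, APOBEC3D and APOBEC3G. The read numbers recovered for APOBEC3C were 2348 to 3619 per sample and for APOBEC3B 1067 to 1625, which gives a counting error of 1.66 to 3.06% for the pair. They were 131 to 340 for APOBEC3D, 195 to 337 for APOBEC3F and 219 to 750 for APOBEC3G, with a counting error of 3.65 to 8.74%. These errors and the levels of 3 reads cover counting only, not the spread between samples.

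**Figure D1:**
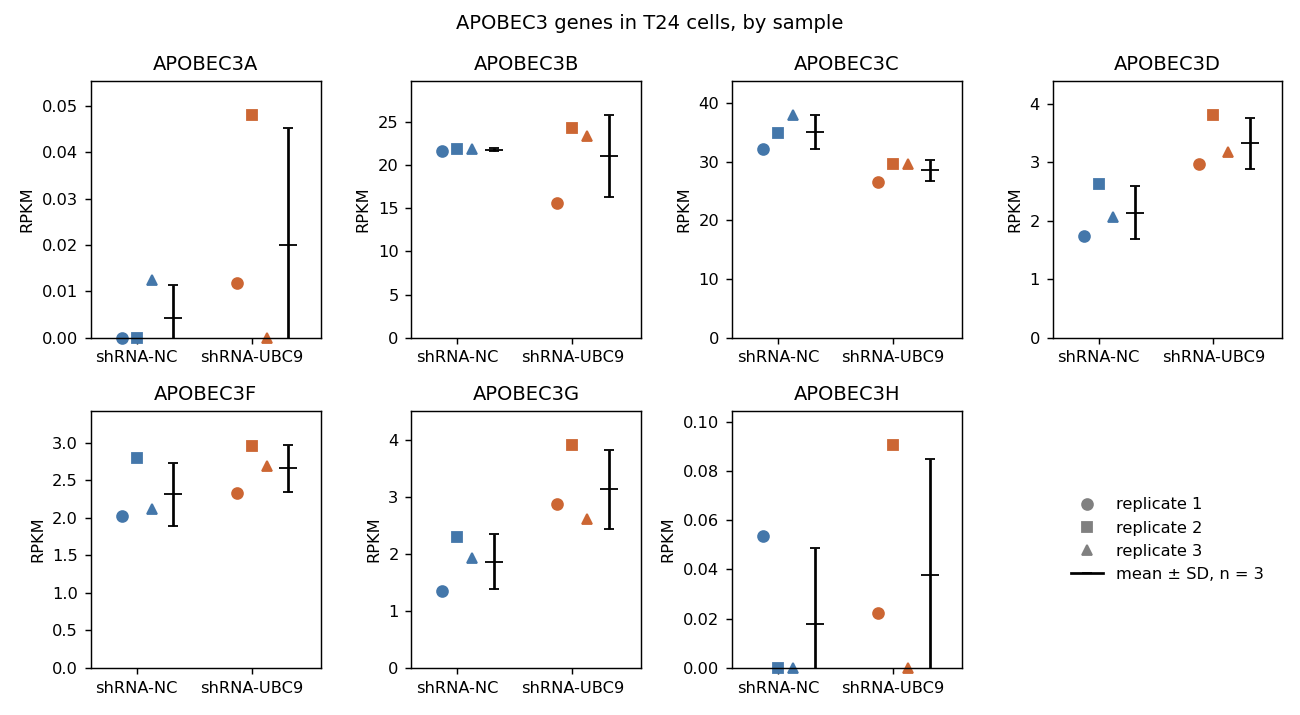
RPKM (vertical axis of each panel, from 0, with its own scale) of the 7 APOBEC3 genes in the shRNA-NC and shRNA-UBC9 samples. Each point is 1 sample with its shape giving the replicate, and the bar is the mean ± SD (n = 3), cut off at 0 for APOBEC3A and APOBEC3H. The groups are apart for APOBEC3C, APOBEC3D and APOBEC3G and overlap for the other members.

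Counted together, 0 of the 5 tested members were called by limma, that is, passed both an adjusted p below 0.05 and a change above 1 on the log2 scale, and none had that size of change with an unadjusted p below 0.05 either. Among all 12428 tested genes 5.20% were called higher and 2.70% lower. With the adjusted p alone, 2 members were higher (APOBEC3D and APOBEC3G) and 1 was lower (APOBEC3C), where 18.8% of all tested genes were higher and 18.0% lower. All shRNA-UBC9 samples were above all controls in 2 members and below them in 1, where this held for 25.7% and 25.4% of all tested genes. The median log2 fold change of the 5 members was 0.20 and that of all tested genes 0.005. For APOBEC3C, APOBEC3D and APOBEC3G the two-sided exact permutation p was 0.1, the smallest that 3 samples in each group allow. In bulk RNA a change in the share of cells that express a gene and a change in the RNA per cell cannot be told apart.

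**Figure D2:**
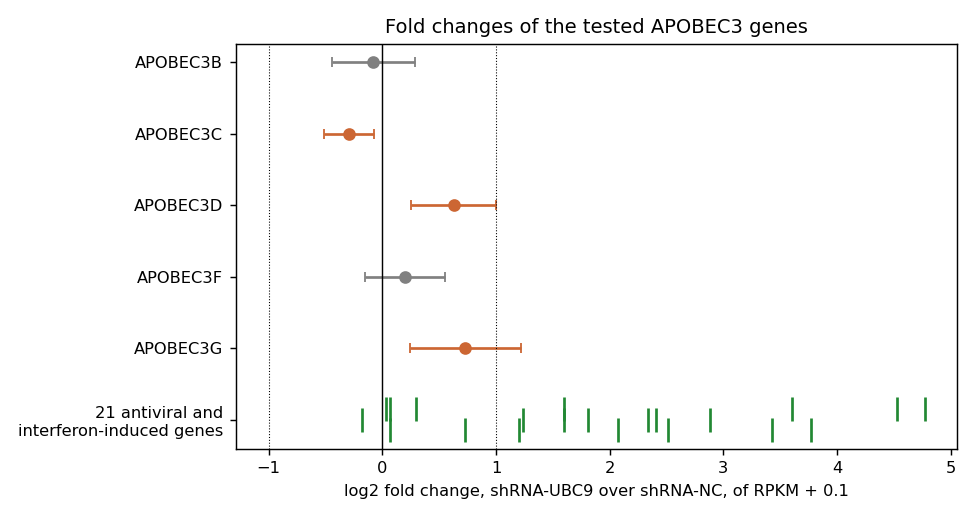
Log2 fold change of RPKM + 0.1, shRNA-UBC9 over shRNA-NC (horizontal axis), with 95% intervals for the 5 tested APOBEC3 genes (coloured where the adjusted p is below 0.05, otherwise grey). Dotted lines mark changes of 1 on the log2 scale, and the ticks in the lowest row are the 21 genes of the antiviral list. These reach 4.77, for RSAD2, which passed the filter on low values only through shRNA-UBC9, whereas no APOBEC3 gene lies beyond 0.73.

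The order of the levels was the same for the highest members in both groups. In RPKM, which is per length, APOBEC3C was above APOBEC3B in 6 of 6 samples, and both were above APOBEC3D, APOBEC3F and APOBEC3G without overlap. Among these 3, the ranges over the shRNA-NC samples overlapped for each pair, although within each of the 3 controls APOBEC3F was above APOBEC3D and APOBEC3D above APOBEC3G. In shRNA-UBC9 the range of APOBEC3D lay above that of APOBEC3F, while that of APOBEC3G overlapped both.

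The places of APOBEC3G and APOBEC3F in this order depended on the length used. The RPKM values of APOBEC3G rest on a length of 5437 bases, whereas its canonical transcript has 1564. If all its reads came from the canonical transcript, its level per kilobase of that transcript would be 6.46 ± 1.67 in shRNA-NC and 10.9 ± 2.40 in shRNA-UBC9 (SD, n = 3), above APOBEC3D at 2.15 ± 0.453 and 3.34 ± 0.437. For APOBEC3F the length used was 3242 bases against 4496 in the canonical transcript. Its level would be 1.67 ± 0.305 and 1.91 ± 0.226, below APOBEC3D in every sample of both groups. The lengths used for APOBEC3B, APOBEC3C and APOBEC3D were nearer to the canonical ones (1896 and 1590, 2818 and 2644, 2528 and 2515 bases). The length is the same in every sample, so it does not enter the relative change of the RPKM of a single gene between groups. It does enter sums and shares over members, since these add values of genes with different lengths.

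The low-level members took a larger share of the family in every shRNA-UBC9 sample than in any control. APOBEC3B and APOBEC3C together made up 91.3%, 88.0% and 90.7% of the summed APOBEC3 RPKM in shRNA-NC 1, 2 and 3 and 83.7%, 83.3% and 86.2% in shRNA-UBC9 1, 2 and 3. APOBEC3D, APOBEC3F and APOBEC3G together made up 8.65%, 12.0% and 9.25% in shRNA-NC and 16.3%, 16.5% and 13.8% in shRNA-UBC9. These shares have no test of their own, and their size depends on the lengths used for the members. The sum itself overlapped, at 59.0, 64.5 and 65.9 RPKM in shRNA-NC and 50.3, 64.8 and 61.4 RPKM in shRNA-UBC9.

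**Figure D3:**
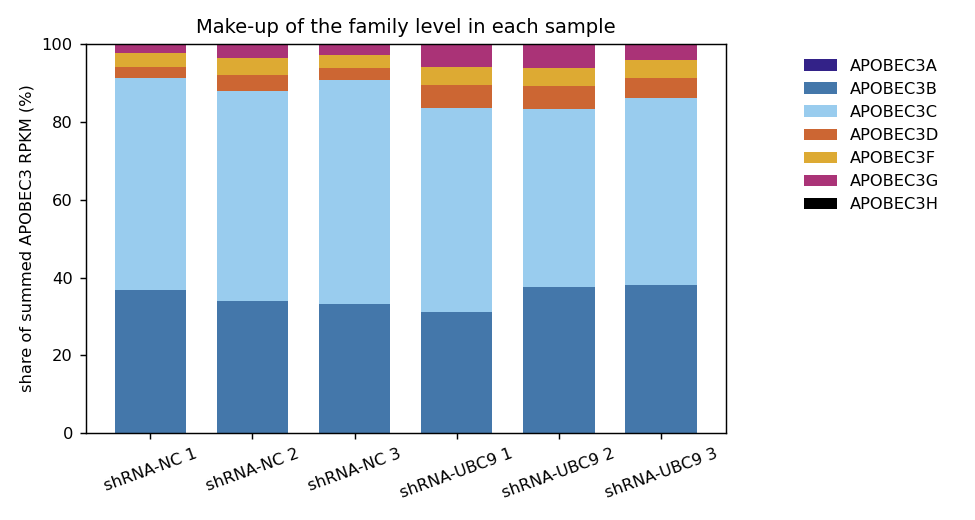
Share of the summed APOBEC3 RPKM (vertical axis, in percent) taken by each member in each of the 6 samples (horizontal axis). APOBEC3B and APOBEC3C fill 88.0 to 91.3% of each shRNA-NC bar and 83.3 to 86.2% of each shRNA-UBC9 bar.

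Ratios between members within a sample do not depend on its depth. Of the 10 pairs of tested members, 7 had ratios that did not overlap between the groups (exact permutation p = 0.1 for each, two-sided, the smallest that 3 against 3 can give, and 0.143 adjusted over the 10 pairs). The pairs share genes, and each of the 7 holds APOBEC3C, APOBEC3D or APOBEC3G, whose own levels did not overlap, so they are not separate results. The share of such ratios over pairs of other tested genes was not computed, so the count of 7 cannot be called high or low. For single genes, all shRNA-UBC9 samples were above all controls in 25.7% of all tested genes and below them in 25.4%. The ratio of APOBEC3C to APOBEC3G was 15.1 to 23.8 in shRNA-NC and 7.57 to 11.3 in shRNA-UBC9, a difference of -1.06 on the log2 scale. The ratio of APOBEC3C to APOBEC3D, which lie next to each other, was 13.3 to 18.5 and 7.77 to 9.28. Both ratios were thus lower in every shRNA-UBC9 sample than in any control.

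The ratio of APOBEC3D to APOBEC3F had little spread within each group. It was 0.862 to 0.969 in shRNA-NC and 1.18 to 1.29 in shRNA-UBC9, a difference of 0.44 on the log2 scale with an SD of 0.09 and 0.07 within the groups. In RPKM, APOBEC3D was therefore below APOBEC3F in 3 of 3 controls and above it in 3 of 3 shRNA-UBC9 samples, although both genes varied together between replicates. This crossing depended on the lengths used. Per kilobase of the canonical transcripts, APOBEC3D would be above APOBEC3F in every sample of both groups. In shRNA-NC 1, 2 and 3 it would be at 1.75, 2.64 and 2.07, against 1.45, 2.02 and 1.53 for APOBEC3F. The ratio of APOBEC3F to APOBEC3G was 1.11 to 1.49 in shRNA-NC and 0.754 to 1.03 in shRNA-UBC9, without overlap. Ratios overlapped for APOBEC3B with APOBEC3C, APOBEC3B with APOBEC3F and APOBEC3D with APOBEC3G, the last of which was 1.07 to 1.29 in shRNA-NC and 0.975 to 1.22 in shRNA-UBC9.

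Part of the spread within groups was shared by members. APOBEC3D, APOBEC3F and APOBEC3G were each highest in replicate 2 of both groups, by 0.15 to 0.33 above the group mean on the log2 scale. The median of 21 antiviral and interferon-induced genes was also highest in these samples, by 0.17 in shRNA-NC 2 and 0.58 in shRNA-UBC9 2. APOBEC3C deviated by at most 0.12 in any sample, and APOBEC3B deviated most in shRNA-UBC9 1, at -0.41. Both were also highest of their group in shRNA-UBC9 2, APOBEC3B by 0.23 and APOBEC3C by 0.06, as were all 5 tested members. In the controls APOBEC3B was highest in shRNA-NC 2, by 0.01 only, and APOBEC3C in shRNA-NC 3, by 0.12.

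Genes typical of blood cells were above 0 in some of the libraries. Of the 11 leukocyte markers, PTPRC, CD3D, CD3E and LYZ were picked after their values were seen, because they were at 0 in the same libraries. They summed to 0.861 and 1.02 RPKM in shRNA-NC 2 and 3 and to 1.39 and 1.25 RPKM in shRNA-UBC9 1 and 2, and all 4 were at 0 in shRNA-NC 1 and shRNA-UBC9 3. HBB, S100A9 and TRBC2, picked in the same way, followed the same pattern, with S100A9 at 2.20 to 2.75 RPKM in those 4 libraries and 0 in the other 2. Other markers of the list did not follow it: CD14 was at 0.657 RPKM in shRNA-NC 1 and highest in shRNA-UBC9 3 (0.752 RPKM), CSF1R was highest in shRNA-UBC9 3 (0.0344 RPKM), and ITGAM was above 0 in all 6 libraries. The whole list of 11 markers summed to 0.724 to 1.79 RPKM in shRNA-NC and 0.792 to 2.17 RPKM in shRNA-UBC9, so its ranges overlapped between the groups. Leukocytes express several APOBEC3 genes, among them APOBEC3A, APOBEC3G and APOBEC3H.

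The members were therefore also compared with this difference in view. In the 2 libraries with the 4 markers at 0, shRNA-UBC9 3 was 1.94-fold shRNA-NC 1 for APOBEC3G, 1.83-fold for APOBEC3D and 1.33-fold for APOBEC3F. In the other 4 libraries the ratio of the means was 1.61, 1.45 and 1.07 for the same genes. The first set of values is 1 library against 1 and has no test. For APOBEC3C the values were 0.918 and 0.771, and for APOBEC3B 1.08 and 0.911.

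With a term for the markers in the fit, the adjusted p of limma was 0.00997 for APOBEC3G, 0.0169 for APOBEC3D and 0.0407 for APOBEC3C. The markers were at 0 in 1 library of each group, so this term could not change the log2 fold changes, only their error. These stayed at 0.733, 0.625 and -0.291, and the smaller p-values do not show whether the blood cell genes bear on the differences. In the 4 libraries with markers alone, it was 0.0619, 0.0983 and 0.0654, and 2847 of all tested genes passed where 4576 did with 6 samples. The part of these blood cell genes in the levels of the members within a group was not tested. The fits with a term and with 4 libraries were chosen after seeing the data.

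**Figure D4:**
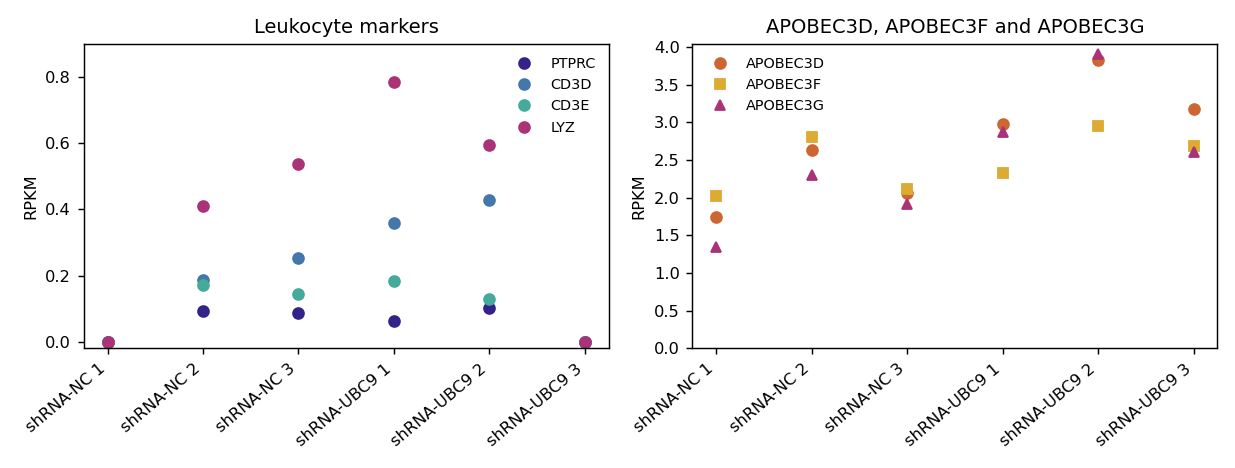
RPKM (vertical axes) of the leukocyte markers PTPRC, CD3D, CD3E and LYZ (left) and of APOBEC3D, APOBEC3F and APOBEC3G (right) in each sample (horizontal axes). The markers are at 0 in shRNA-NC 1 and shRNA-UBC9 3, and APOBEC3D and APOBEC3G are higher in shRNA-UBC9 3 than in shRNA-NC 1.

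The members lie on the plus strand of chromosome 22 between 38952741 and 39104067 (GRCh38), within 151.3 kilobases. From APOBEC3A (38952741 to 38963184) the order is APOBEC3B (38982347 to 38992804), APOBEC3C (39014257 to 39020352), APOBEC3D (39021113 to 39033277), APOBEC3F (39040604 to 39055972), APOBEC3G (39077067 to 39087743) and APOBEC3H (39097224 to 39104067). The log2 fold changes did not follow this order. APOBEC3C, which was lower in shRNA-UBC9, lies directly before APOBEC3D, which was higher. APOBEC3F and APOBEC3G follow with 0.20 and 0.73, and the untested APOBEC3H ends the cluster.

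Outside the cluster, CBX6 (log2 fold change 0.04, adjusted p = 0.796) and CBX7 (0.43, adjusted p = 0.119), which encode Polycomb chromobox proteins, flank it among the 8 neighbours listed. Of these 8, limma gave 3 lower with an adjusted p below 0.05 and 0 higher: the neuronal pentraxin receptor NPTXR (-0.73, 0.0453), the ribosomal protein gene RPL3 (-0.51, 0.00368) and SYNGR1 (-0.47, 0.0124). Among all tested genes 18.8% were higher and 18.0% lower by the adjusted p, and the neighbours were not tested against the members. Of the members, APOBEC3H alone had a promoter sequence in the RefSeq table used here, and its window of 300 bases held no match, on either strand, to GAAANNGAA (interferon response, in 8.11% of all promoters), TTCNNNGAA (STAT binding, 7.66%), GGANTTNCC (NF-kappaB type, 4.27%) or TTTGAA (cell cycle genes, 15.2%).

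**Figure D5:**
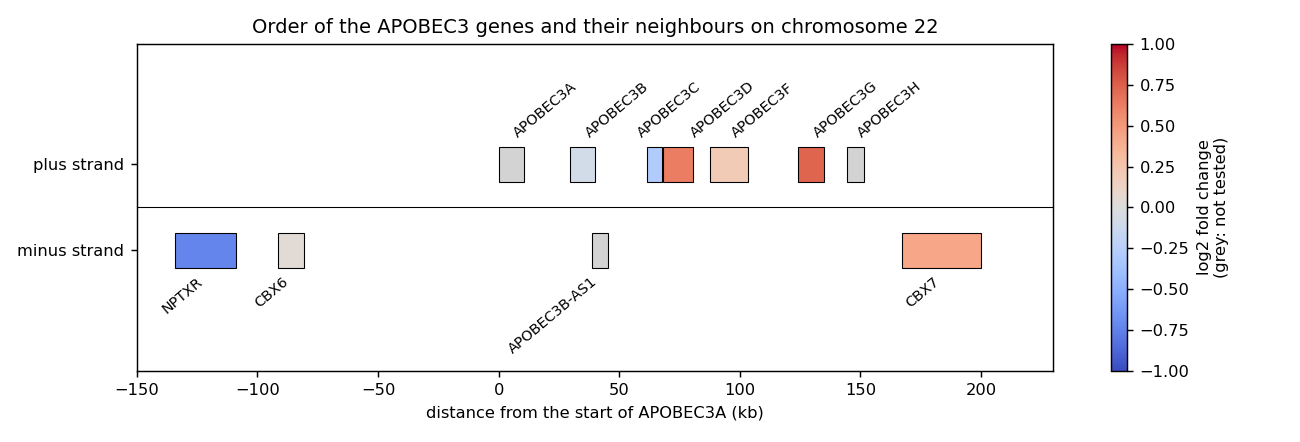
Position of the 7 APOBEC3 genes, APOBEC3B-AS1 and the nearest neighbours, by strand and distance from the start of APOBEC3A in kilobases (horizontal axis), coloured by log2 fold change (grey where not tested). APOBEC3C, at -0.29, is next to APOBEC3D, at 0.63.

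The pathways around the family are given as counts, to be read beside the shares of all tested genes that were called (5.20% higher and 2.70% lower) or passed the adjusted p alone (18.8% and 18.0%). Of 21 other restriction factors and interferon-induced antiviral genes, 15 were called higher and 0 lower, with a median log2 fold change of 1.81. RSAD2 (viperin) rose by 4.77 (adjusted p = 0.000611) and MX1, a GTPase against influenza viruses, by 4.53 (adjusted p = 0.000184). At 0.284, 0.842 and 0.263 RPKM in shRNA-NC 1, 2 and 3, RSAD2 passed the filter on low values only through shRNA-UBC9. BST2, which tethers budding HIV, rose by 1.81 (adjusted p = 0.00112). The highest log2 fold change of an APOBEC3 gene, 0.73 for APOBEC3G, was below the median of this list.

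The signals that are known to drive APOBEC3 genes moved as follows. Of 18 genes of interferon signalling 15 were tested, of which 5 were called higher, 0 were called lower and 11 were higher by the adjusted p alone. IFNL1, a type III interferon, rose by 2.82 (adjusted p = 0.00270). It was at 0.0391 to 0.069 RPKM in shRNA-NC and 0.62 to 2.38 RPKM in shRNA-UBC9, and passed the filter on low values only through shRNA-UBC9. IRF7 rose by 2.52 (adjusted p = 8.33e-05), and IFNB1, not tested, was at 0 in every control and at 0.206 to 0.793 RPKM in shRNA-UBC9. Of 10 NF-kappaB genes, a pathway described for APOBEC3B, 5 were called higher and 0 lower, and 8 were higher and 1 lower by the adjusted p alone, with TNFAIP3 at 3.42 (adjusted p = 0.000256) and RELB at 1.99 (adjusted p = 0.00292).

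Of 11 genes of the B-MYB, FOXM1 and DREAM group, also described for APOBEC3B, 1 was called lower, MYBL2 at -1.12 (adjusted p = 0.00301). By the adjusted p alone 6 of the 11 were lower and 1 higher, with RBL2 at -0.86 (adjusted p = 0.000617). APOBEC3B itself did not pass the test in either direction.

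The product of the deaminases, uracil in DNA, is removed by glycosylases and repaired through abasic sites. Of 15 genes for uracil and abasic site processing, 8 were lower by the adjusted p (18.0% of all tested genes), 1 was higher (18.8%) and 6 did not pass, with a median log2 fold change of -0.35. UNG, the main uracil DNA glycosylase, was at 17.1, 19.2 and 16.4 RPKM in shRNA-NC 1, 2 and 3 and at 4.40, 6.71 and 6.53 RPKM in shRNA-UBC9 1, 2 and 3. The groups were far apart, and UNG fell by 1.59 on the log2 scale (SE 0.161, limma, adjusted p = 0.000315), as the 1 gene of the list that was called (2.70% of all tested genes were called lower).

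Among the other glycosylases of that list, TDG fell by 0.84 (adjusted p = 0.00103), SMUG1 rose by 0.45 (adjusted p = 0.00904) and MBD4 was at 0.20 (adjusted p = 0.233). The abasic endonuclease gene APEX1 fell by 0.49 (adjusted p = 0.00353) and DUT, which removes dUTP, fell by 0.52 (adjusted p = 0.00612).

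Of the cofactors and regulators, 7 of 8 symbols were found (all but RBX2) and 1 was called, HNRNPUL1, a nuclear ribonucleoprotein gene, which fell by 1.01 (adjusted p = 0.000931). By the adjusted p alone 4 rose: TRIB3 (0.78, 0.00446), ELOC (0.47, 0.00505), RNF7 (0.44, 0.00706) and CBFB (0.34, 0.0273). CBFB and ELOC encode partners of the ligase that Vif recruits against APOBEC3G. ELOB (-0.09, adjusted p = 0.383) and CUL5 (-0.18, adjusted p = 0.175), of the same ligase, did not pass.

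The genes with the pattern most like a member were found over the 6 samples by the root mean square difference of log2 values, each taken relative to its shRNA-NC mean. For APOBEC3C these were RMND5A (0.027), ZC3H7A (0.032) and MYCBP2 (0.034), and for APOBEC3D they were C18orf8 (0.069), BAZ1A (0.095) and ZNF311 (0.098). For APOBEC3G they were ZNF311 (0.11), NMI (0.12), an interferon-induced gene, and DLGAP1-AS2 (0.13). None of the 3 members was called, so they were included here after their values were seen.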

How the data were processed

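Polyadenylated RNA of T24 cells (3 shRNA-NC and 3 shRNA-UBC9 samples) was sequenced on an Illumina platform. After trimming, the authors aligned reads to the human genome (GRCh38) in the CLC Biomedical Genomics Workbench with default settings, and RPKM values of 58174 genes were deposited for each sample. The annotation release and the strand setting are not given in the sources used here. RPKM does not correct for RNA composition.

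Samples were grouped by their labels. Values were taken to log2(RPKM + 0.1), so fold changes of low genes are understated. Genes with at least 0.5 RPKM in at least 3 samples (12428) were fitted in R 4.3.3 by limma 3.58.1 (linear model, moderated with an intensity trend), with Benjamini-Hochberg adjustment over all of them. Genes were called with an adjusted p below 0.05 and a log2 change above 1 in size. The methods of the study state another threshold, which was run as an alternative. The script was tested on simulated data with 200 changed genes among 12428. Of genes changed by 0.7 on the log2 scale 49.5% passed the adjusted p, and of genes changed by 2 it was 96.5%. A change of about the size seen for APOBEC3D and APOBEC3G can therefore be missed.

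Whole reads of single genes, and the depth of 28200000 to 36100000 mapped reads, were recovered from the steps of low RPKM values with Python 3.11.15. Recovered read numbers had to be whole within a tolerance of 0.01. Of 836 genes with 1 annotated transcript and recovered reads, 278 gave nearly the same depth. Count models were not used. The level of the targeted gene is not reported here. Gene positions and transcripts came from GENCODE on GRCh38 and promoters from RefSeq.

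All 7 members were named whatever their values, with APOBEC3B-AS1 and genes of each list past the adjusted p. The rule also took the 3 genes most alike to a called member, and since none was called they are given for APOBEC3C, APOBEC3D and APOBEC3G, a choice made after their values were seen, as was the naming of MBD4, CBX6, CBX7, IFNB1 and the blood cell genes. The members and lists were chosen with earlier results of these data known. The alternatives were other pseudocounts, filters and scalings, no trend, a replicate block, other thresholds, leaving out each sample and, chosen after seeing the data, 2 fits on leukocyte markers.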

Additional observations from a re-analysis of the deposited data

How the results depend on the processing

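The count of 0 called APOBEC3 genes was also 0 under every alternative run except the adjusted p with no fold threshold, which gave 3. The count of members higher by the adjusted p was 2, and it was 0 with no filter on low values, 0 in the 4 samples with leukocyte markers above 0 (chosen after seeing the data) and 0 to 2 when 1 sample was left out (0 without shRNA-NC 1, shRNA-NC 3 or shRNA-UBC9 2). The count lower was 1, and it was 0 with no filter, with no intensity trend, in those 4 samples, and 0 to 1 when 1 sample was left out (1 without shRNA-NC 1 only). The log2 fold change of APOBEC3B was -0.191 to 0.127 when 1 sample was left out, and turned to 0.127 without shRNA-UBC9 1. No other direction of a tested member turned. Over all genes, the 981 called became 552 with a pseudocount of 1 and 4576 with no fold threshold, and the 4576 with an adjusted p below 0.05 became 3034 to 4183 when 1 sample was left out (3034 without shRNA-NC 3) and 2847 in the 4 samples. Fewer samples were fitted in these, and the cause of the other changes was not tested. Quantile normalization shifted the median of all genes to -0.043 and median scaling to -0.037.

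With replicate number as a block, the count of members lower was 0 (APOBEC3C, adjusted p = 0.0651) and the count higher was 2 (APOBEC3D 0.0134, APOBEC3G 0.0175). The numbers did not pair the samples, since deviations from the group means correlated at -0.367, 0.073 and -0.17 between samples of the same number. The highest correlation across the groups was 0.526, between shRNA-NC 1 and shRNA-UBC9 3, the libraries with the 4 leukocyte markers at 0. With a term for these markers 5063 genes had an adjusted p below 0.05 in limma, against 4576 without it. The cause of this correlation was not tested. At this depth APOBEC3A and APOBEC3H, with at most 4 reads per sample, could not be compared.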
